A study of Gallus gallus with 9 samples.

Results

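The collagen genes were taken as all chicken genes whose single symbol in the platform annotation had the form COL, number, A, number. There were 41 such genes among the 13008 chicken genes named on the array, covered by 121 probe sets, and each gene was read from the probe set with the highest mean over the 9 arrays. Preadipocytes from the abdominal fat of laying hens were cultured in 3 groups of 3 samples: with the adipogenic cocktail named DMIOA plus 10 uM retinoic acid, with DMIOA, and untreated as the control. The labels leave DMIOA unexpanded, give no strain, age or treatment time, and tie no replicate to a hen or culture. The titles call the samples biological replicates 1 to 3, and the p-values reflect the spread among these samples only. Titles of the DMIOA and control samples carry the mark "(2)" and the retinoic acid titles lack it, with no explanation in the labels. Whatever the mark stands for cannot be told apart from retinoic acid here. The values are deposited log2 expression values, which ran over the whole table from 0.362 to 15.0, and array medians lay between 2.49 and 2.54. The number of arrays limits the precision.

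Collagens are secreted or membrane-bound proteins whose chains wind into long helices and give tissue its mechanical frame. Fibrillar collagens (types I, III, V, XI and XXVII here) form banded fibrils, network collagens (types IV and VIII here) form sheets such as the basement membrane, the beaded collagen VI forms fine microfibrils close to cells, and transmembrane collagens (XIII and XXIII here) sit in the plasma membrane. In fat, each adipocyte is wrapped in a basement membrane with collagen VI around it, and the matrix is rebuilt as preadipocytes become adipocytes.

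A gene was tested where its probe set reached a log2 value of 5 on at least 3 of the 9 arrays, which 18 of the 41 collagens did. Of these 18, 14 were at 5 or above on all 9 arrays, COL8A2, COL11A1, COL23A1 and COL27A1 were below it on some, and 0 passed through a single group. By class, 3 of 4 beaded, 4 of 9 network, 2 of 4 transmembrane and 7 of 9 fibrillar collagens were tested, with 2 of the 15 others, COL12A1 and COL18A1. The remaining 23 genes had no value above 4.87 on any array, with means over the 9 arrays between 1.90 and 3.76. Values below are log2 and are given in the order of replicates 1, 2 and 3, and a difference is the first-named group minus the second. A call is an adjusted p under 0.05 by limma with Benjamini-Hochberg adjustment over all 12329 chicken probe sets that passed the same filter.

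Replicate 3 stood apart from replicates 1 and 2 in every group. Within groups, arrays 1 and 2 correlated at 0.997 in the retinoic acid group, 0.963 in the DMIOA group and 0.995 in the control, while pairs with replicate 3 lay between 0.912 and 0.931. DMIOA replicate 1 was closer to control replicates 1 and 2, at 0.981 and 0.979, than to DMIOA replicate 2. No pair of arrays was closer than retinoic acid replicates 1 and 2. Should these come from a single culture, p-values here are too low. The 12 macrophage and leukocyte markers had medians of 1.99, 2.14 and 7.34 with retinoic acid, 2.14, 1.92 and 8.96 with DMIOA and 1.99, 2.26 and 9.54 in the control, so that they were high in replicate 3 of each group. In that replicate their median was lowest with retinoic acid. Not every marker followed the median: CTSS, CD74 and, by little, SPI1 were higher there with retinoic acid than with DMIOA. LAPTM5 was nearly equal in the groups. Of 7 mesenchymal or fibroblast markers on the array, 6 were at 5 or above on all 9 arrays, and the medians over all 7 were 8.59, 8.50 and 8.16 with retinoic acid, against 8.75, 8.80 and 8.82 with DMIOA and 9.04, 9.33 and 9.07 in the control. PDGFRA, a defining fibroblast marker, was below 5.

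Among 8 adipocyte markers 5 passed the filter, and PLIN1, ADIPOQ and CEBPA were below 5 on every array. The medians over the 8 were 5.16, 5.28 and 6.45 with retinoic acid, 5.45, 7.04 and 7.36 with DMIOA and 5.36, 5.25 and 5.35 in the control. FABP4, the fatty acid carrier of adipocytes, was at 6.41, 6.26 and 12.28 with retinoic acid, 10.61, 12.94 and 12.96 with DMIOA and 10.39, 10.07 and 9.57 in the control. It was thus low in retinoic acid replicates 1 and 2 and not in replicate 3. In the retinoic acid, DMIOA and control groups, CIDEC averaged 6.79, 7.72 and 3.81 and PLIN2 11.22, 11.85 and 10.38. CIDEC was at 6.59, 6.50 and 7.28 with retinoic acid and 6.20, 9.75 and 7.22 with DMIOA, so only replicate 2 was higher with DMIOA. PPARG averaged 7.76, 8.91 and 9.26 and LPL 4.73, 5.75 and 7.18, both highest on average in the control. For PPARG the order turned in replicate 3, with 10.41, 10.26 and 7.11 in the control and 9.63, 9.04 and 8.05 with DMIOA.

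Of the 8 endothelial markers 3 passed the filter, and KDR, TEK, TIE1, VWF and EGFL7 were below 5 on every array. ERG, an endothelial transcription factor, was at 8.87, 8.92 and 8.02 with retinoic acid, 10.74, 9.68 and 9.84 with DMIOA and 10.16, 10.37 and 10.24 in the control. PECAM1, an endothelial adhesion protein, was at 3.89, 3.83 and 5.31 with retinoic acid, 5.53, 4.99 and 6.06 with DMIOA and 6.82, 7.11 and 7.42 in the control. Both were lower on average with retinoic acid than in either other group. CDH5, the adhesion protein of endothelial junctions, averaged 8.84, 9.52 and 8.99 in the retinoic acid, DMIOA and control groups. It was at 7.89, 7.82 and 10.82 with retinoic acid. With DMIOA it was at 8.98, 8.64 and 10.93, and in the control at 7.82, 8.22 and 10.92. Replicate 3 was thus its highest array in each group, as for the leukocyte medians.

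Of 10 skeletal muscle markers on the array 2 passed the filter. TNNT3 averaged 5.95, 6.53 and 5.97, and the myosin MYH1E 3.91, 5.71 and 8.04, in the same order of groups. None of the 8 chondrocyte or 3 epithelial markers on the array reached 5 on any array. The part of these other cells in the collagen values was not tested. Repeating the fits on replicates 1 and 2, given below, only leaves out the arrays with high leukocyte medians. In those replicates ERG, PECAM1 and MYH1E were still lower with retinoic acid than in the control, while CDH5 overlapped and TNNT3 was higher. That repeat therefore cannot test the part of endothelial or muscle cells.

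DMIOA plus retinoic acid against DMIOA compared the cocktail with and without retinoic acid. All 3 tested collagen VI chains, both tested collagen IV chains, COL8A1, COL23A1 and COL5A2 fell, by 1.76-fold to 4.99-fold, and no tested collagen rose. That is 8 of 18 lower and 0 higher, where 1.77% of all probe sets tested were called lower, 2.12% higher and 3.89% in either direction. The difference was negative for 17 of the 18, with a median of -0.97 beside 0.04 over all probe sets tested. In a bulk sample, fewer cells of a type and less RNA per cell cannot be told apart.

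Against the control, 10 of 18 fell and 0 rose, where 6.42% of all probe sets were called lower, 6.74% higher and 13.2% in either direction. The median difference was -1.06, beside 0.08 over all probe sets. DMIOA against control gave 0 of 18 calls by limma, where 0.146% of all probe sets were called, 0.0487% higher and 0.0973% lower. At an unadjusted p under 0.05 that comparison had 1 collagen higher and 2 lower, where 5.91% of all probe sets were higher and 5.68% lower, and the median was -0.08 beside 0.02. All 3 comparisons share arrays, so their values are set side by side and are not independent.

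For 12 of the 18 collagens the retinoic acid arrays were all below the DMIOA arrays, where 9.16% of all probe sets tested were and 22.0% did not overlap in either direction. The same held for 11 relative to the control, where 15.5% of all probe sets were lower and 38.6% did not overlap. The DMIOA and control arrays did not overlap for 4, of which COL11A1, COL4A2 and COL8A1 were lower and COL23A1 higher in DMIOA (15.5% of all probe sets, 7.34% lower).

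With the replicate number as a block, 10 collagens fell with retinoic acid relative to DMIOA and 0 rose (10.8% of all probe sets called, 5.56% higher and 5.27% lower). Relative to the control, 13 fell and 0 rose (28.8% called, 15.8% higher and 13.0% lower). The same block gave 1 collagen higher with DMIOA than in the control, COL23A1, and 0 lower (1.29% of all probe sets called, 0.495% higher and 0.795% lower). In replicates 1 and 2 alone, where the leukocyte medians were 2.26 or less, 11 collagens fell relative to DMIOA, where 5.78% of all probe sets were called lower, and 14 relative to the control, where 13.4% were. Without the replicate that stood apart, calls over all probe sets rose too, from 479 to 1517 and from 1623 to 3620. The retinoic acid pair in this fit is the one that correlated at 0.997. Should it come from a single culture, the p-values of this fit are too low.

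**Figure D1:**
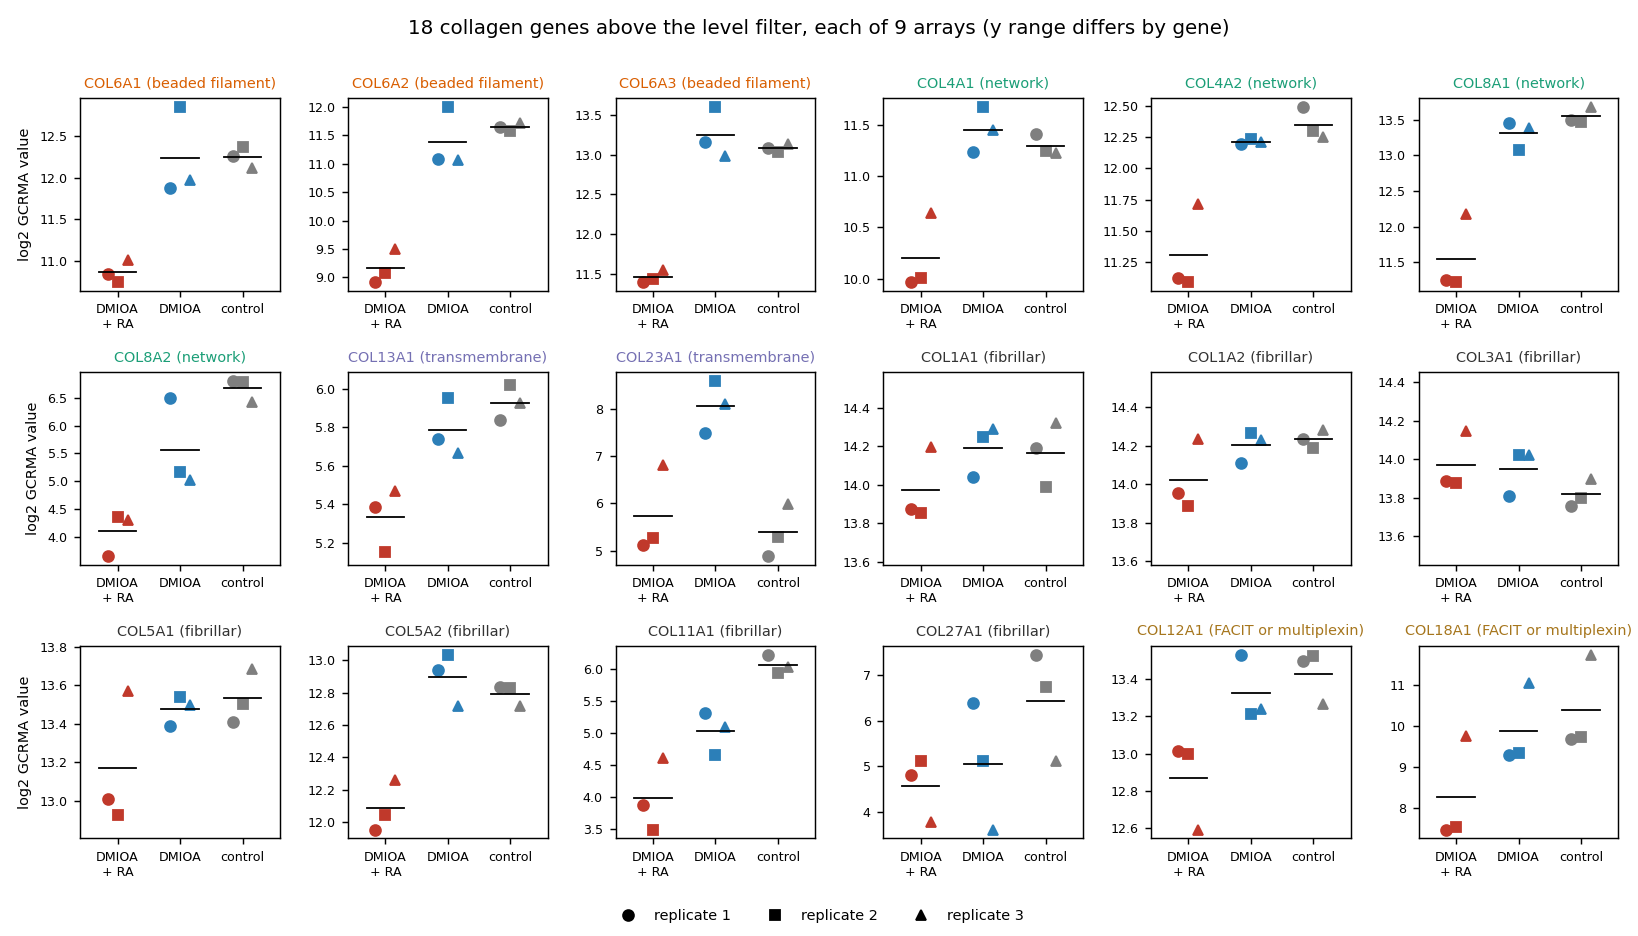
The log2 value of each of the 18 tested collagens on each of the 9 arrays, by class; points are arrays, grouped as DMIOA plus retinoic acid (RA), DMIOA and control, and bars are group means. The collagen VI and IV chains, COL8A1 and COL5A2 have all 3 retinoic acid arrays below all 6 others.

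All 3 tested collagens of the beaded class fell with retinoic acid, both relative to DMIOA and relative to the control (1.77% and 6.42% of all probe sets called lower). COL6A2 (gene ID 396292), a chain of the collagen VI microfibril, was at 8.92, 9.08 and 9.50 with retinoic acid, 11.08, 12.00 and 11.07 with DMIOA and 11.64, 11.57 and 11.71 in the control. The retinoic acid arrays lay below the 6 others with no overlap, and the DMIOA and control arrays overlapped. COL6A2 fell 4.64-fold relative to DMIOA (log2 difference -2.21 ± 0.27 SE, adjusted p = 0.00514) and 5.57-fold relative to the control (-2.48 ± 0.27, adjusted p = 0.00189).

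COL6A3, the long chain whose cleaved end is known as endotrophin, was at 11.40, 11.43 and 11.55 with retinoic acid, 13.15, 13.60 and 12.98 with DMIOA and 13.08, 13.03 and 13.13 in the control. Its retinoic acid arrays spanned a narrow range and overlapped neither other group. It fell by 1.79 ± 0.16 relative to DMIOA on the log2 scale (adjusted p = 0.00121) and by 1.62 ± 0.16 relative to the control (adjusted p = 0.00135). The calls of COL6A2 and COL6A3 held in both comparisons without any 1 of the 9 arrays, with a highest adjusted p of 0.0360.

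COL6A1, the remaining chain of the same trimer, was at 10.84, 10.75 and 11.01 with retinoic acid, 11.88, 12.85 and 11.98 with DMIOA and 12.26, 12.37 and 12.12 in the control. Here too the retinoic acid arrays were the lowest and did not overlap the others. It fell 2.59-fold relative to DMIOA (-1.37 ± 0.25, adjusted p = 0.0236) and 2.61-fold relative to the control (-1.38 ± 0.25, adjusted p = 0.0118). Its call relative to DMIOA was lost on leaving out replicate 1 or 2 of the retinoic acid or control group (highest adjusted p 0.114). Relative to the control it was lost on leaving out control replicate 2 or retinoic acid replicate 1 or 2 (highest 0.0565). COL6A1 and COL6A2 are adjacent coding genes in the RefSeq table of assembly GRCg7b.

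Among the network collagens, COL4A1 and COL4A2 encode the main chains of basement membrane collagen IV and are also adjacent in that assembly. COL4A1 was at 9.97, 10.01 and 10.64 with retinoic acid, 11.23, 11.67 and 11.45 with DMIOA and 11.42, 11.25 and 11.23 in the control. COL4A2 was at 11.12, 11.09 and 11.71 with retinoic acid, 12.20, 12.23 and 12.21 with DMIOA and 12.49, 12.30 and 12.25 in the control. For both genes, retinoic acid replicate 3 was the nearest to the other groups and still below them.

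COL4A1 fell 2.37-fold relative to DMIOA (-1.24 ± 0.21, adjusted p = 0.0165) and 2.13-fold relative to the control (-1.09 ± 0.21, adjusted p = 0.0141). COL4A2 fell 1.87-fold relative to DMIOA (-0.90 ± 0.18, adjusted p = 0.0332) and 2.05-fold relative to the control (-1.04 ± 0.18, adjusted p = 0.00994). The call of COL4A1 relative to DMIOA was lost on leaving out DMIOA replicate 2 or either of retinoic acid replicates 1 and 2 (highest adjusted p 0.0851), and relative to the control without replicate 1 or 2 of either group (up to 0.0653). That of COL4A2 relative to DMIOA was lost without any of 7 of the 9 arrays, all but retinoic acid and control replicate 3 (up to 0.149), and relative to the control without retinoic acid replicate 1 (0.0504).

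COL8A1 encodes a short-chain collagen of vessel walls and of the corneal basement membrane. It was at 11.26, 11.22 and 12.18 with retinoic acid, 13.45, 13.08 and 13.38 with DMIOA and 13.50, 13.46 and 13.67 in the control. All retinoic acid arrays were below the others, replicate 3 by the least. COL8A1 fell 3.37-fold relative to DMIOA (-1.75 ± 0.26, adjusted p = 0.0106) and 3.98-fold relative to the control (-1.99 ± 0.26, adjusted p = 0.00335). The call relative to DMIOA needed both of retinoic acid replicates 1 and 2 (with either left out, the adjusted p reached 0.0551), while that relative to the control held without any 1 array.

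COL8A2, its partner chain, was at 3.67, 4.36 and 4.31 with retinoic acid, 6.49, 5.16 and 5.02 with DMIOA and 6.80, 6.78 and 6.42 in the control. All 3 retinoic acid arrays were below the filter value of 5, so a fold is given as a bound with those arrays set at 5. COL8A2 fell at least 3.18-fold relative to the control (-2.56 ± 0.39, adjusted p = 0.00629), without any 1 array as well. Relative to DMIOA it was not called (adjusted p = 0.0926), with a fold of at least 1.47.

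**Figure D2:**
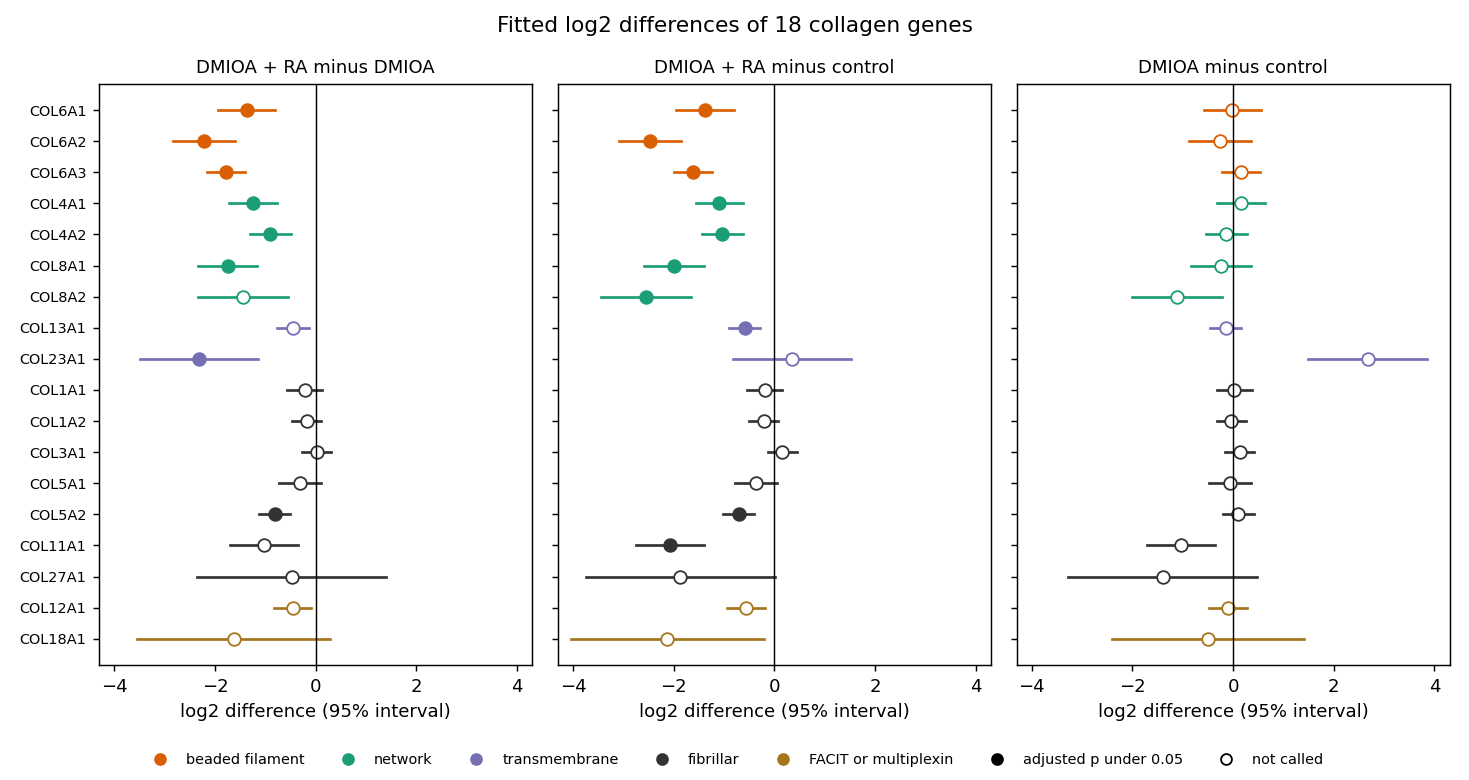
Log2 differences of the 18 tested collagens in each comparison, with 95% intervals from limma, grouped by class; filled points were called. The median is -0.97 for DMIOA plus retinoic acid against DMIOA, -1.06 against the control, and -0.08 for DMIOA against control.

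In the transmembrane class, COL23A1 encodes a collagen that is anchored in the plasma membrane and can be shed from it. It was at 5.13, 5.27 and 6.82 with retinoic acid, 7.48, 8.58 and 8.11 with DMIOA and 4.89, 5.28 and 5.98 in the control. The DMIOA arrays were above both other groups, which overlapped each other.

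COL23A1 fell 4.99-fold in the retinoic acid group relative to DMIOA (-2.32 ± 0.51, adjusted p = 0.0496), a call that was lost without any 1 array other than retinoic acid replicate 3 (adjusted p up to 0.191). With the replicate block its adjusted p was 0.0114. DMIOA against control gave 2.67 ± 0.51 (adjusted p = 0.131), which was called with the replicate block (0.0369), as at least 6.21-fold higher in DMIOA. That blocked call was lost without any 1 array other than retinoic acid replicate 3 (up to 0.20). Relative to the control, the retinoic acid group differed by 0.35 (interval -0.82 to 1.53).

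COL13A1, a transmembrane collagen of cell adhesion sites and the neuromuscular junction, was at 5.39, 5.15 and 5.47 with retinoic acid, 5.74, 5.95 and 5.67 with DMIOA and 5.84, 6.02 and 5.93 in the control. The retinoic acid arrays were the lowest, by a small margin. COL13A1 fell 1.51-fold relative to the control (-0.59 ± 0.13, adjusted p = 0.0263), and this call was lost without replicate 1 or 2 of either group (up to 0.106). Relative to DMIOA the difference was -0.45 ± 0.13 (adjusted p = 0.125).

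In the fibrillar class 1 of 7 fell relative to DMIOA and 2 of 7 relative to the control (1.77% and 6.42% of all probe sets called lower). With the replicate block 2 and 3 of the 7 fell (5.27% and 13.0%). COL5A2, a chain of the collagen V that limits fibril width, was at 11.95, 12.04 and 12.26 with retinoic acid, 12.94, 13.03 and 12.72 with DMIOA and 12.83, 12.83 and 12.72 in the control. The retinoic acid arrays did not reach the others. COL5A2 fell 1.76-fold relative to DMIOA (-0.81 ± 0.13, adjusted p = 0.0159) and 1.63-fold relative to the control (-0.71 ± 0.13, adjusted p = 0.0139). The first call was lost without DMIOA replicate 1 or retinoic acid replicate 1 or 2 (up to 0.0894), and the second without replicate 1 or 2 of either group (up to 0.0689).

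COL11A1, a minor fibril chain best known from cartilage, was at 3.87, 3.49 and 4.60 with retinoic acid, 5.31, 4.66 and 5.09 with DMIOA and 6.22, 5.93 and 6.02 in the control. The 3 groups did not overlap, although retinoic acid replicate 3 and DMIOA replicate 2 were close. COL11A1 fell at least 2.08-fold with retinoic acid relative to the control (-2.07 ± 0.29, adjusted p = 0.00450), without any 1 array as well. Relative to DMIOA the adjusted p was 0.108, and 0.0354 with the replicate block, a call that was lost without any of 7 arrays (up to 0.154). All 3 retinoic acid arrays and 1 DMIOA array were below 5, and with the retinoic acid arrays set at 5 the fold was at least 1.01. DMIOA against control was not called (adjusted p = 0.240).

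COL27A1, a fibrillar collagen of developing cartilage, was at 4.81, 5.11 and 3.77 with retinoic acid, 6.40, 5.11 and 3.61 with DMIOA and 7.45, 6.75 and 5.11 in the control. Replicate 3 was the lowest array of every group. The difference of the retinoic acid group from the control was -1.87 ± 0.81 (adjusted p = 0.166), and with the replicate block it was called (0.0106, at least 2.64-fold lower). The blocked call was lost without control replicate 1 or 2 (up to 0.0544).

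The interstitial fibril chains COL1A1, COL1A2, COL3A1 and COL5A1 gave no call. COL1A1 was at 13.88, 13.85 and 14.20 with retinoic acid, 14.04, 14.25 and 14.29 with DMIOA and 14.19, 13.99 and 14.32 in the control. Its groups overlapped, and the 95% interval of the difference from DMIOA was -0.56 to 0.12. The interval was -0.46 to 0.11 for COL1A2, -0.27 to 0.31 for COL3A1 and -0.73 to 0.11 for COL5A1. A call missed does not show equal expression, and the intervals bound the differences these probe sets allow. Each of these chains was read from a probe set with a mean of 13 or more, a level at which differences varied less over all probe sets. Dimmer probe sets of COL1A2, with larger negative differences but none called, and of COL3A1 are given below. COL5A2, which fell, and COL3A1, which gave 0.02 ± 0.12, are adjacent coding genes in the assembly.

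COL12A1 and COL18A1 belong to none of these classes. COL12A1, which binds the surface of collagen I fibrils, was at 13.01, 13.00 and 12.59 with retinoic acid, 13.53, 13.21 and 13.24 with DMIOA and 13.49, 13.52 and 13.27 in the control. The retinoic acid arrays were all below the others. The difference from the control was -0.56 ± 0.16 (adjusted p = 0.0582), called with the replicate block (0.0169) but not without control replicate 1 or 2 or retinoic acid replicate 1 (up to 0.0837).

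COL18A1, a basement membrane collagen whose end fragment is endostatin, was at 7.47, 7.54 and 9.74 with retinoic acid, 9.27, 9.34 and 11.03 with DMIOA and 9.68, 9.73 and 11.73 in the control. Replicate 3 was the highest array of each group, and within each replicate number the retinoic acid array was the lowest. Without the block the difference from DMIOA was -1.63 ± 0.83 (adjusted p = 0.390) and from the control -2.13 ± 0.83 (0.129). With the replicate block COL18A1 fell 3.10-fold relative to DMIOA (adjusted p = 0.00164) and 4.37-fold relative to the control (0.000412), and neither blocked call was lost without any 1 array.

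The difference from DMIOA was smaller in replicate 3. The median over the 18 collagens of the retinoic acid array minus the DMIOA array of the same number was -1.17, -1.07 and -0.57, beside 0.03, 0.05 and 0.02 over all probe sets tested. It was smallest in replicate 3 for 15 of the 18, and negative in all 3 replicates for 14. Neither count was made over all probe sets, so neither is shown to be particular to collagens. Relative to the control the medians were -1.40, -1.22 and -0.63. The leukocyte markers were high in the same replicate, as given above, and their part in this was not tested.

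**Figure D3:**
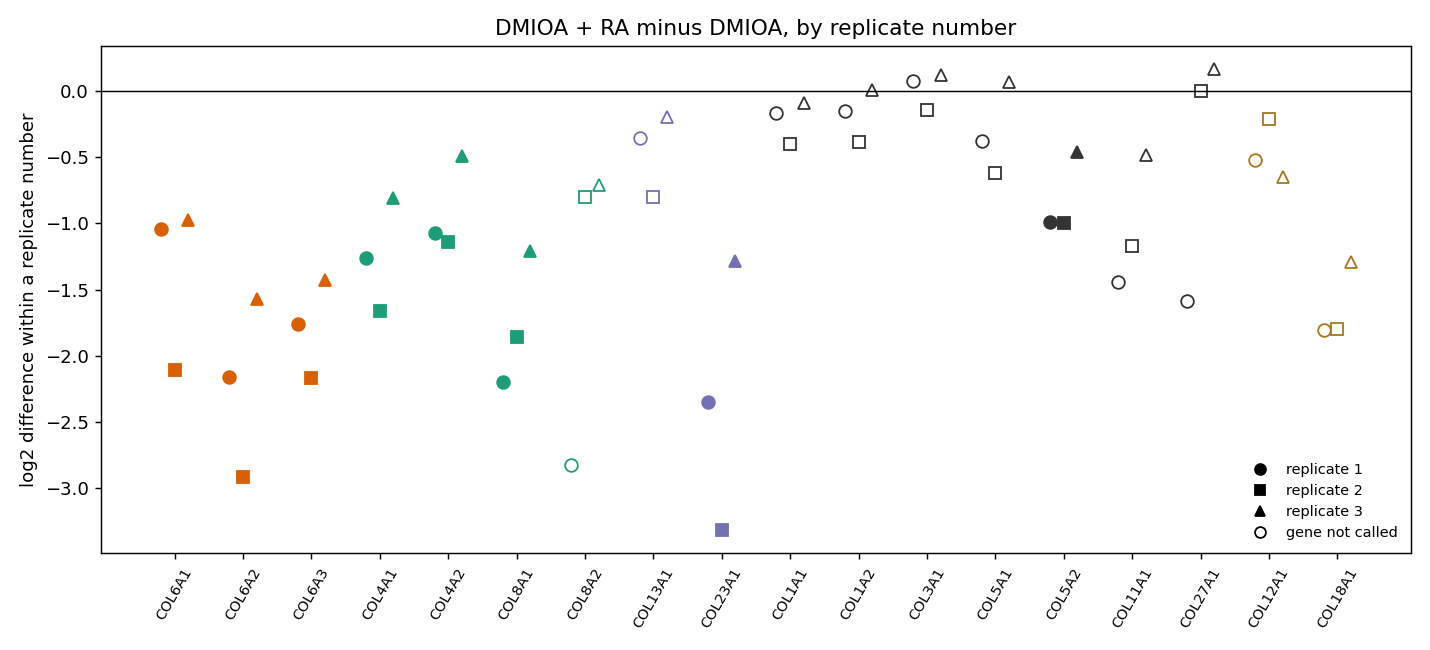
Log2 difference of each tested collagen between the DMIOA plus retinoic acid and DMIOA arrays of the same replicate number; the symbol shape gives the replicate, and filled symbols are genes called in that comparison. The medians are -1.17, -1.07 and -0.57 in replicates 1, 2 and 3.

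Replicate 3 itself, set against replicates 1 and 2 over all groups, changed 2 of the 18 collagens 1 in each direction, where 32.4% of all probe sets were called, 13.5% higher and 18.9% lower. COL18A1 was higher in replicate 3 by 2.00 ± 0.11 (adjusted p = 0.000188), with 2.24, 1.73 and 2.02 in the retinoic acid, DMIOA and control groups. COL27A1 was lower, by -1.77 ± 0.29 (adjusted p = 0.00696), with -1.19, -2.15 and -1.99. Both shifts had the same direction in all 3 groups, which a call over all groups favours. Without DMIOA replicate 2, 5 collagens were called.

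**Figure D4:**
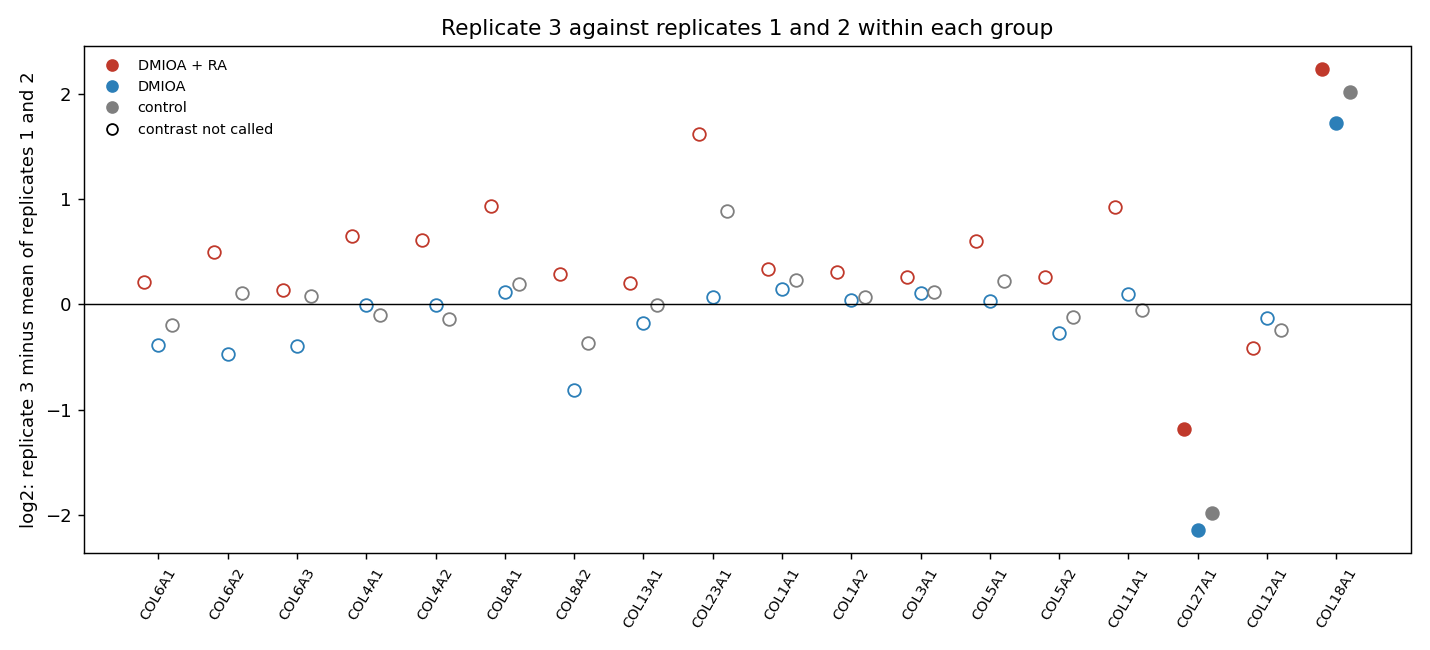
Log2 difference of replicate 3 from the mean of replicates 1 and 2 in each group, for the 18 tested collagens; filled points mark the genes called over all groups. COL18A1 lies above 0 and COL27A1 below 0 in all 3 groups.

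Of the 18 genes, 10 had more than 1 probe set that passed the filter, 41 probe sets in all for the 18. For DMIOA plus retinoic acid against DMIOA, all 3 probe sets of COL8A1 were called, with differences of -1.75, -2.79 and -2.01. All 3 of COL5A2 were called as well, at -0.81, -1.58 and -1.57, and so were both of COL6A1, at -1.37 and -1.44. The 5 probe sets of COL3A1 lay between -0.40 and 0.13 with 0 called. Against the control those 5 lay between -1.27 and 0.65, with 0 called and 1 called lower with the replicate block.

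Other genes differed among their probe sets. For retinoic acid against DMIOA, COL4A1 had 1 of its 2 probe sets called, with differences of -1.24 and -1.05. COL4A2 had 3 of 5 called, with differences between -1.36 and -0.31. The brightest probe set of COL1A2 gave -0.18, and its 4 dimmer ones -0.38, -0.97, -1.20 and -1.01, none called. For COL12A1 the values were -0.46, -1.49, -0.95 and -2.29, of which the third was called (adjusted p = 0.00797). Against the control the same 4 gave -0.56, -1.67, -1.06 and -3.08, and all but the brightest were called lower. The 7 collagen probe sets with a mean of 13 or more, a level picked after the values were seen, had differences between -0.46 and 0.13 and 0 calls. The 34 below it ran between -2.79 and 0.05 with 16 called lower. Over all probe sets tested, 4 of the 235 at 13 or more and 214 of the 12094 below were called lower, and the SD of the differences was 0.21 and 0.65. The highest value in the table was 15.0. Why bright probe sets varied less was not tested.

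**Figure D5:**
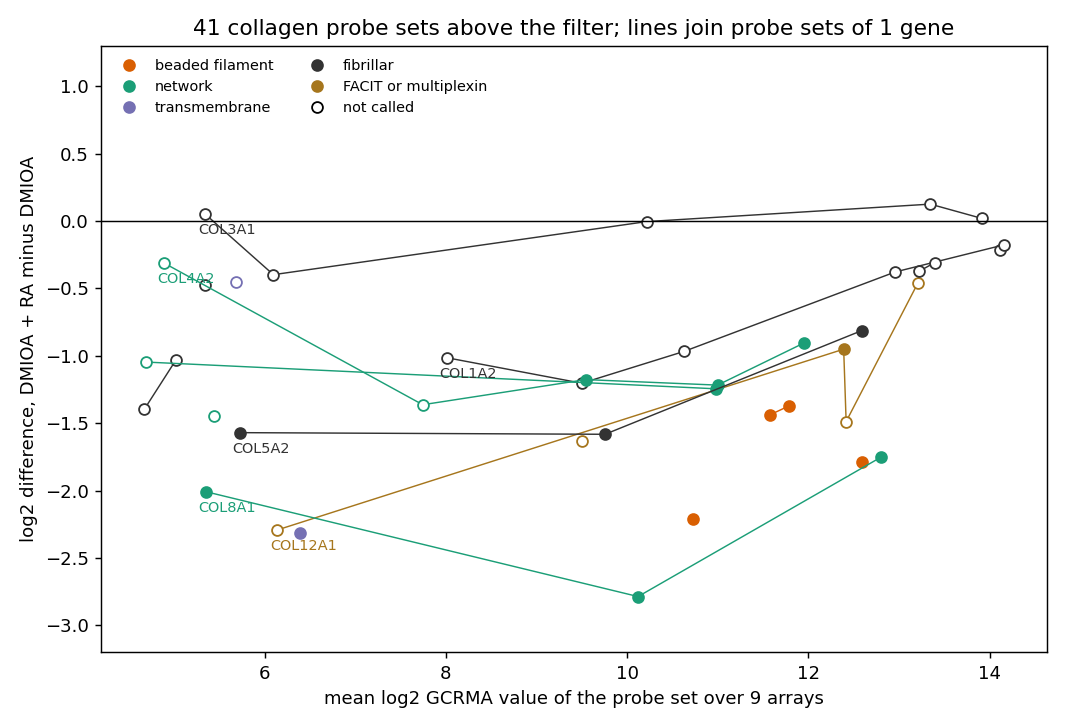
Log2 difference between DMIOA plus retinoic acid and DMIOA against the mean log2 value over 9 arrays, for the 41 collagen probe sets that passed the filter; lines join probe sets of 1 gene and filled points were called. The 7 with a mean of 13 or more lie between -0.46 and 0.13, and the other 34 between -2.79 and 0.05.

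Collagen chains are hydroxylated, folded and secreted with the help of dedicated enzymes, and are cross-linked outside the cell. Of 36 genes listed for these steps, 25 were on the array and 20 were tested. DMIOA against control called 0 of 20 by limma, with 1 higher and 4 lower at an unadjusted p under 0.05, beside 5.91% and 5.68% of all probe sets. The retinoic acid group had 1 higher and 1 lower relative to DMIOA (2.12% and 1.77% of all probe sets), and 2 higher and 4 lower relative to the control (6.74% and 6.42%). Under the block they were 2 higher and 2 lower (5.56% and 5.27%), and 3 higher and 7 lower (15.8% and 13.0%). The block added LOXL2 higher and PLOD1 lower in both comparisons, and P4HB and TLL1 lower relative to the control. Relative to DMIOA, the LOXL2 call was lost without any 1 of the 9 arrays and that of PLOD1 without any of 8. Relative to the control, these added calls were each lost without any of 4 to 8 arrays. The medians of the 20 differences were -0.06, -0.10 and -0.05 for DMIOA against control and for retinoic acid against DMIOA and against the control.

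P4HA2, a catalytic subunit of the prolyl 4-hydroxylase that stabilises the collagen helix, was at 12.24, 12.11 and 12.70 with retinoic acid, 9.99, 10.43 and 10.24 with DMIOA and 10.03, 10.21 and 11.16 in the control. All 3 retinoic acid arrays were above the others. P4HA2 rose 4.39-fold relative to DMIOA (2.13 ± 0.31, adjusted p = 0.00949) and 3.69-fold relative to the control (1.88 ± 0.31, adjusted p = 0.00807), without any 1 array as well. P4HA3, another catalytic subunit of that enzyme family, fell 4.83-fold relative to the control (-2.27 ± 0.27, adjusted p = 0.00262). It averaged 5.36, 6.22 and 7.64 in the retinoic acid, DMIOA and control groups, so the DMIOA mean too was below the control. P4HA3 was not called relative to DMIOA, and its retinoic acid arrays were near the filter value of 5.

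LOXL3, a lysyl oxidase that cross-links collagen, fell by 1.34 ± 0.16 relative to the control (adjusted p = 0.00277) and by 0.75 ± 0.16 relative to DMIOA (adjusted p = 0.0484, lost without any of 8 arrays). LOXL1, of the same family, rose by 0.75 ± 0.20 relative to the control (adjusted p = 0.0455). The collagen chaperone SERPINH1 fell by 0.54 ± 0.15 (adjusted p = 0.0476), and CRTAP, part of the prolyl 3-hydroxylase complex, by 0.61 ± 0.13 (adjusted p = 0.0199). In the retinoic acid, DMIOA and control groups LOXL1 averaged 13.60, 13.48 and 12.86, its DMIOA mean being near that with retinoic acid. SERPINH1 averaged 12.19, 12.45 and 12.73 and CRTAP 12.83, 13.14 and 13.44, with DMIOA in between. None of LOXL1, SERPINH1 and CRTAP was called relative to DMIOA. The calls of LOXL1, SERPINH1 and CRTAP were each lost without any of 4 to 7 arrays.

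Receptors for collagen and proteins that bind its fibrils made up a list of 25 genes, of which 22 were on the array and 16 were tested. DMIOA against control called 0 of 16 by limma, with 0 higher and 2 lower at an unadjusted p under 0.05, beside 5.91% and 5.68% of all probe sets. Retinoic acid gave 0 higher and 1 lower relative to DMIOA (2.12% and 1.77% of all probe sets), and 1 higher and 3 lower relative to the control (6.74% and 6.42%), with medians of 0.03 and -0.28. The blocked counts were 1 higher and 3 lower (5.56% and 5.27%), and 1 higher and 6 lower (15.8% and 13.0%). The block added ITGA1 higher and NID2 and ITGA11 lower relative to DMIOA, and ITGA11, DDR2 and LUM lower relative to the control. These added calls of ITGA1, NID2, DDR2 and LUM were each lost without any of 3 to 5 arrays. CSPG4, the membrane proteoglycan NG2 that binds collagen VI, was at 3.09, 2.82 and 3.25 with retinoic acid, 6.23, 5.59 and 6.66 with DMIOA and 7.29, 7.33 and 7.32 in the control. The 3 groups did not overlap. CSPG4 fell at least 2.23-fold relative to DMIOA (-3.11 ± 0.25, adjusted p = 0.000682) and at least 4.98-fold relative to the control (-4.27 ± 0.25, adjusted p = 9.54e-05), without any 1 array as well.

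BGN, the fibril-binding proteoglycan biglycan, was at 3.52, 3.79 and 5.78 with retinoic acid, 3.04, 2.06 and 4.53 with DMIOA and 7.83, 8.05 and 7.66 in the control. The control arrays were above all others, and replicate 3 was the highest array of both treated groups. BGN fell at least 6.0-fold with retinoic acid relative to the control (-3.48 ± 0.73, adjusted p = 0.0206). All 3 DMIOA arrays were below 5, and DMIOA against control was not called (adjusted p = 0.0747). With the replicate block it was called at least 7.19-fold lower in DMIOA (0.0358), which was lost without any of 7 arrays (up to 0.181). The basement membrane linker NID2 fell by 1.01 ± 0.23 with retinoic acid relative to the control (adjusted p = 0.0286), and the collagen receptor kinase DDR1 rose by 0.70 ± 0.15 (adjusted p = 0.0207). The calls of BGN, NID2 and DDR1 for retinoic acid against the control were each lost without any of 4 or 5 arrays.

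ITGA11, the subunit of an integrin that binds fibrillar collagen, was at 5.99, 6.01 and 9.34 with retinoic acid, 8.76, 8.87 and 10.43 with DMIOA and 9.79, 10.16 and 11.17 in the control. Replicate 3 was the highest array of each group. With the replicate block ITGA11 fell 4.72-fold relative to DMIOA (-2.24, adjusted p = 0.0266) and 9.56-fold relative to the control (-3.26, adjusted p = 0.00444). The blocked call relative to DMIOA was lost without any of 6 arrays (up to 0.113), and that relative to the control held without any 1 array. Without the block the adjusted p was 0.285 and 0.0568.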

How the data were processed

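Per the submitters' processing notes, the authors made the deposited log2 expression values per probe set with GCRMA, a background correction that models probe sequence, followed by normalization and a summary per probe set. No version or setting of it is given in the sources, and that values are log2 was inferred from their range. Per the labels' protocols, TriZol extraction preceded labelling, and 15 ug of aRNA was made for the array. Neither scanner files nor detection calls entered here, and the log2 level alone stood for signal above background. No genome build is tied to the probe sets, so no positions are given, and RefSeq's gene table (assembly GRCg7b) served for names and neighbours: all 41 collagens were found in it. No sequences were used here.

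Of 38535 probe sets, 37693 were of chicken and 12329 reached a log2 value of 5 on at least 3 of 9 arrays. These were fitted with limma 3.58.1 in R 4.3.3 (lmFit and eBayes, a mean per group, 6 residual degrees of freedom) and adjusted over all 12329 by Benjamini-Hochberg. Where the dimmer group had arrays below 5, they were set at 5 and the fold is a lower bound. The replicate number was the block in a second fit (4 residual degrees of freedom), because the 9 pairs of arrays with the same number deviated together (correlations of 0.375 to 0.857). Pairs of arrays from different groups with different numbers ran between -0.804 and 0.668. Replicates 1 and 2 deviated together across groups as well, so these values set replicate 3 apart more than they pair the numbers. The procedure was tested on simulated data with independent noise on each array. That setting holds no replicate 3 shift and no close pair like retinoic acid replicates 1 and 2, so it does not cover them. The alternatives were no filter, a filter at 6, median centring, cyclic loess, a trended robust prior, 2 groups only, each array left out, and replicates 1 and 2 only. Values on every array are given for collagens called in any comparison, with or without the block. Members, lists and alternatives were chosen with earlier results of these data known. The replicate 3 contrast was added after seeing the data.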

Additional observations from a re-analysis of the deposited data

How the results depend on the processing

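Of the 31 called differences of named genes, 0 changed sign in any alternative run. The 31 were picked by their calls on these same arrays, so a change of sign was unlikely from the start. Many of these calls were lost on leaving out 1 array, as given above. Of the differences that were not called, 15 changed sign in at least 1 run, most of them for DMIOA against control. With the replicate block, probe sets called numbered 159 for DMIOA against control, 1336 for DMIOA plus retinoic acid against DMIOA and 3546 against the control, and 1 collagen was called for DMIOA against control. Replicates 1 and 2 alone gave 172, 1517 and 3620 probe sets and 1 collagen for DMIOA against control. Fits on 2 groups only gave 0 probe sets for DMIOA against control, and 216 probe sets and 2 collagens for retinoic acid against DMIOA. The trended robust prior gave 11 probe sets for DMIOA against control and 4 collagens for replicate 3. Cyclic loess split the calls against the control into 612 higher and 935 lower, beside 831 and 792. Collagen calls under the filters, centring and loess were 7 or 8 relative to DMIOA and 8 to 11 relative to the control.

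Leaving out each array in turn gave 0 to 39, 146 to 602 and 546 to 1997 probe sets for DMIOA against control, retinoic acid against DMIOA and retinoic acid against control. Collagens called numbered 0, 2 to 9 and 5 to 11, with 2 relative to DMIOA without retinoic acid replicate 1 or 2, and 2 to 5 for replicate 3. With the replicate block the ranges were 0 to 398, 371 to 1560 and 1343 to 3898 probe sets, including for DMIOA against control 1 and 3 without retinoic acid replicate 2 and 1, 52 without control replicate 3 and 92 without DMIOA replicate 1. For retinoic acid against DMIOA they included 809, 891 and 1293 without control replicate 1, 2 and 3 and 1054 without DMIOA replicate 2. Against the control they included 3101 without control replicate 3, 3292 and 2864 without DMIOA replicate 1 and 3, and 3477 without retinoic acid replicate 3. Blocked collagen counts ran 0 to 2, 4 to 10 and 8 to 14 collagens. Why these counts moved was not tested. The 23 collagens below a log2 value of 5 were tested only in the fit with no filter, and 3 arrays a group limit the precision of the rest.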

Other observations

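Among the 23 collagens below the filter, COL10A1, the network collagen of hypertrophic cartilage, was at 1.97, 1.63 and 1.83 with retinoic acid, 1.83, 1.57 and 1.97 with DMIOA and 2.96, 3.42 and 3.97 in the control. The control arrays lay above all others, at levels below the filter value of 5. With no filter, the difference of retinoic acid from the control was -1.64 (adjusted p = 0.00965 by limma), and it was the only call among these 23 genes in the 3 comparisons. DMIOA against control gave a near equal -1.66 for COL10A1 (adjusted p = 0.0815 by limma), and retinoic acid against DMIOA gave 0.02. COL24A1, a fibrillar collagen, was at 4.87, 4.57 and 2.10 with retinoic acid, 4.86, 2.89 and 2.19 with DMIOA and 4.44, 4.01 and 2.29 in the control. Its replicate 3 arrays were the lowest of each group.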
